A study of Homo sapiens with 18 samples.

Results

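RNA was sequenced from 2 established human bladder cancer cell lines, T24 and UM-UC-3, and the 3 T24 libraries numbered replicate 2 are described here against the 6 T24 libraries numbered 1 and 3. They are 3 of 9 T24 libraries and of 18 libraries in the series. The rule took the T24 columns of the count table whose names end in 2 and set them against those ending in 1 or 3, with the siRNA as a covariate. Replicate 2 was selected on the counts of these same libraries, which were known to set it apart, so its differences are given as a description with no test. T24 cells of wild-type genotype were kept in RPMI-1640 with serum and transfected by lipofection. They received siNC, the negative control, siACAT1-1 or siACAT1-2, which both target ACAT1, and each made a group of 3 libraries. ACAT1 is the mitochondrial acetyl-CoA acetyltransferase of ketone body and isoleucine breakdown. UM-UC-3 cells of the same genotype, kept in MEM, received the same siRNAs, again with 3 libraries per group. The labels call the numbers biological replicates and the design text says that the experiments were independent, but the sources used here do not say what a number stands for (a day, a passage, a batch), so replicate 2 and anything handled with it cannot be told apart. Each group is 1 cell line in bulk culture.

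Several programmes recur in what follows. NF-κB is a transcription factor held in the cytoplasm by the inhibitor IκBα (NFKBIA) and released by inflammatory signals, after which it switches on cytokine and chemokine genes together with its own inhibitors NFKBIA and TNFAIP3. ATF4 is translated when amino acids run short, when proteins misfold in the endoplasmic reticulum or when mitochondria are disturbed, and it switches on genes of amino acid uptake and synthesis, tRNA charging and, with ATF3 and DDIT3, of cell death. Immediate-early genes such as EGR1, JUN and DUSP1 are switched on within minutes of growth factor or stress signals without new protein synthesis. Genes of mitosis are transcribed late in the cell cycle, and MondoA and FOXO factors switch on TXNIP, ARRDC4 and KLHL24 according to glucose and insulin signalling.

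Promoter stretches are shown for 9 of the genes that were higher in replicate 2 because they hold a short motif of the factor their list is named after. The sequences are from RefSeq promoters (GRCh38.p14, 250 bases before to 50 after the start of the gene), read 5′ to 3′ on the strand of the gene with 10 bases on either side, and the capitals mark the match. In 6 cytokine promoters they mark the κB motif GGANTTTCC, and in ATF3, CHAC1 and ASNS the ATF4 composite element TGATGNAA, which in CHAC1 lies on the opposite strand and so reads as its complement. The stretches lie at chr7:22727118-22727146 (plus strand) for IL6, chr4:73740468-73740496 (plus) for CXCL8, chr4:73869305-73869333 (plus) for CXCL1, chr4:74099254-74099282 (minus) for CXCL2, chr4:74038749-74038777 (minus) for CXCL3, chr4:73998749-73998777 (minus) for CXCL5, chr1:212565206-212565233 (plus) for ATF3, chr15:40953252-40953279 (plus) for CHAC1 and chr7:97872459-97872486 (minus) for ASNS.
IL6: atcaaatgtgGGATTTTCCcatgagtctc
CXCL8: tgcaaatcgtGGAATTTCCtctgacataa
CXCL1: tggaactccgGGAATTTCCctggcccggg
CXCL2: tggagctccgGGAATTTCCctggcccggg
CXCL3: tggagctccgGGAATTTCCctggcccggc
CXCL5: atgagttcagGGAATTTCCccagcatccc
ATF3: aaggtcaggaTGATGGAAggctgtcata
CHAC1: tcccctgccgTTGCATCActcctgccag
ASNS: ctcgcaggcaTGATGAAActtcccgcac
Between the end of the κB motif and the start lie 63 bases in IL6, 82 in CXCL8, 69 in CXCL1, 68 in CXCL2, 69 in CXCL3 and 81 in CXCL5. CXCL1, CXCL2 and CXCL3, neighbours on chromosome 4, hold it in nearly the same surroundings. Between the end of the composite element, as read here, and the start lie 183 bases in ATF3, 201 in CHAC1 and 60 in ASNS. All distances are from the RefSeq start, which in IL6 and CXCL8 lies inside the wider gene interval given with their levels. A match of letters is a description and shows no binding.

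The 3 replicate 2 libraries stood apart from the other 6 whatever the siRNA. Of 18116 genes that passed the filter on low counts, 2533 (14.0%) counted as higher and 2246 (12.4%) as lower in replicate 2. A gene counts here when the fitted log2 difference is at least 1.5-fold (0.58) and replicate 2 lies above, or below, both other replicates of the same siRNA in all 3 siRNAs. Among the higher genes the median difference was 0.98 on the log2 scale, 1216 were at least 2-fold and 304 at least 4-fold, and in 1976 (78.0%) the lowest replicate 2 level was above the highest of the other 6. The lower genes had a median size of 0.94, with 970 at least 2-fold and 131 at least 4-fold, and 1671 (74.4%) did not overlap. The rule already places replicate 2 outside both other replicates of each siRNA, so these shares are partly built in. The share over all fitted genes was not taken. Just inside the limit were ZNF304 at 0.586 and MYOF at -0.586. On the first principal component of log2 CPM, which held 45.1% of the variance, the replicate 2 libraries lay at 63.3 to 68.6 and the others at -47.6 to -21.8. The contrast of replicate 2 took 44.3% of the variance of the 9 libraries, the siRNA 26.3%, the difference of replicate 3 from replicate 1 10.5% and the remainder 18.9%. These are levels in bulk RNA, in which fewer cells of a kind and less RNA per cell cannot be told apart, and a gene seen in the 3 replicate 2 libraries alone can pass the filter.

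**Figure D1:**
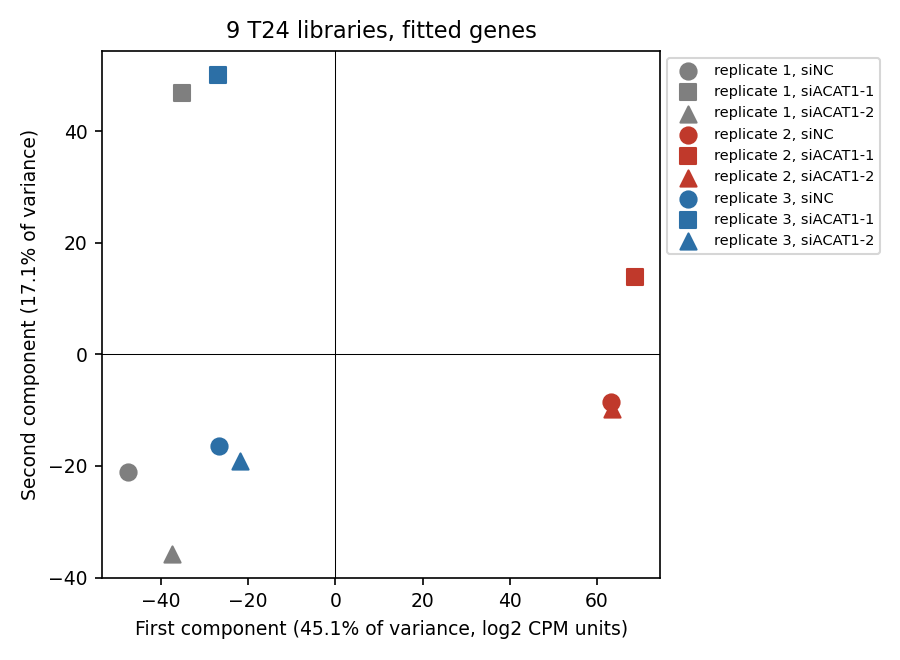
First and second principal component of log2 CPM over the fitted genes, 1 point per T24 library, with colour for the replicate number and shape for the siRNA. The 3 replicate 2 libraries lie at 63.3 to 68.6 on the first component and the other 6 at -47.6 to -21.8.

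Libraries of T24 had 28163252 to 30160793 reads counted on genes in replicate 2, 27067273 to 34417230 in replicate 1 and 25163490 to 31769867 in replicate 3, so the ranges overlapped. The TMM scaling factors did not overlap, at 1.03 to 1.06 in replicate 2 and 0.931 to 1.02 in the others, and their part in the results was not tested. The 100 most abundant genes of each library took 22.2 to 23.0% of the reads in replicate 2 and 25.2 to 27.3% in the others. Of 17 genes found only in UM-UC-3 (at least 5 RPKM in each of its libraries, at most 0.05 RPKM in T24 replicates 1 and 3), the summed level was 0.0909 to 0.574 RPKM in replicate 2, 0.0684 to 0.173 in the other T24 libraries and 221 to 255 in UM-UC-3 cells. The epithelial markers KRT7, KRT8 and KRT18 led the T24 libraries, while CDH1, CDH3, KRT5, KRT13, KRT14, UPK1B, UPK3A, GRHL3, ELF3 and TP63, 10 of the 22 markers in the table, were under 0.1 RPKM in all 9, so these cells lack several defining urothelial genes. The summed level of the epithelial list was 310 to 438 RPKM in replicate 2 and 749 to 1105 in the others. Of the leukocyte list, 7 of 12, PTPRC, CD3E, CD3D, CD2, LYZ and CSF1R among them, were under 0.1 RPKM throughout, and the sum, led by the haemoglobin copies HBA2 and HBA1, was 54.4 to 68.9 RPKM against 57.9 to 145. All 7 endothelial markers were under 0.1 RPKM (sums of 0.114 to 0.118 against 0.0767 to 0.160), and of the 8 fibroblast markers 6, DCN and POSTN among them, were too (0.389 to 0.693 against 0.426 to 0.933).

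Genes of inflammation stood highest in replicate 2 among the lists. Of 31 genes in the cytokine and NF-κB list 30 were in the table and 27 passed the filter, and 23 of these were higher and 0 lower. The median difference of the 27 was 1.84, against 0.00 over all genes, at 2.51, 1.59 and 1.56 with siNC, siACAT1-1 and siACAT1-2. The 4 that did not count, named after their values were seen, were TNF (0.16), CXCL6 (0.21), TNFAIP2 (0.38) and BIRC3 (0.68). CXCL11, CCL2 and CCL5 were at or under 0.1 RPKM in all 9 libraries and did not pass the filter.

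The interleukin gene IL6 (chr7:22725884-22732002, chromosome 7) was at 100.4, 91.4 and 140.4 RPKM in the replicate 2 libraries with siNC, siACAT1-1 and siACAT1-2, the order used for every such set of values, and at 1.53 to 12.2 (median 4.44) in the other 6. The groups were far apart, with a log2 difference of 4.49 ± 0.28 (standard error). An antisense gene covers 20.7% of its exon bases, and the strand setting of the counting is not given in the sources used here. CXCL8 (chr4:73740506-73743716), the neutrophil-attracting chemokine IL-8, was at 471, 431 and 374 RPKM against 12.9 to 41.7 (median 31.3). The 6 other libraries were all far below, and the difference was 3.96 ± 0.24. CSF2, the growth factor GM-CSF for granulocytes and macrophages, was at 80.2, 63.8 and 58.7 RPKM against 1.55 to 8.38 (median 4.54) (3.97 ± 0.33). CXCL2, another neutrophil chemokine, was at 130.4, 107 and 138 RPKM against 6.24 to 19.3 (median 9.54) (3.57 ± 0.22). In none of these 4 genes did any other T24 library reach a replicate 2 library.

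The other ligands were named after their values were seen. IL1A and IL1B, the interleukin-1 genes that start inflammation, were at 98.9 to 107 against 4.24 to 21.9 (median 14.8) and 193 to 291 against 13.4 to 100.5 (median 27.5) RPKM, with differences of 2.86 and 2.92. Further chemokines were CXCL1 at 268 to 420.0 against 54.2 to 123 (median 73.8), CXCL3 at 19.1 to 30.4 against 1.18 to 4.76 (median 2.31) and CXCL5 at 102 to 162 against 9.74 to 36.2 (median 14.4) RPKM. All of these replicate 2 ranges lie above the ranges of the other libraries. PTGS2, which makes prostaglandins, was at 0.949 to 1.89 against 0.0110 to 0.196 (median 0.0822) RPKM, a larger difference (4.21) at a low level. Among the parts of the pathway itself, the feedback inhibitor TNFAIP3 (A20) was at 40.8 to 47.1 against 6.38 to 19.4 (median 10.6) RPKM and NFKBIA at 80.1 to 104 against 29.2 to 78.5 (median 41.8). The subunit genes differed in size, with RELB at 1.84 ± 0.16, NFKB2 at 1.19 ± 0.22 and NFKB1, at the edge of the limit, at 0.59 ± 0.11. The adhesion receptor ICAM1 (1.64) and the mitochondrial superoxide dismutase SOD2 (1.53) were higher as well.

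The gene with the largest difference of all that met the naming rule was LCN2 (chr9:128149071-128153455, chromosome 9), which codes for lipocalin-2, an iron-scavenging protein of innate defence. It was at 127, 261 and 133 RPKM in replicate 2 and at 0.618 to 9.60 (median 2.48) in the others, a difference of 5.73 ± 0.30. The beta-defensin gene DEFB103B was near 0 outside replicate 2 (0 to 0.365 (median 0.0767) RPKM) and at 2.33, 11.5 and 8.64 RPKM in it. It has a near-identical copy, DEFB103A, so reads may be split between them and its value (5.71 ± 0.47) is uncertain. Matrix proteases came next. Stromelysin-1, MMP3 (chr11:102835801-102843803), was at 3.88, 11.7 and 12.6 RPKM against 0.0697 to 0.523 (median 0.189) (5.18 ± 0.26), and collagenase MMP1 at 2.23, 3.37 and 4.94 against 0.118 to 0.314 (median 0.229) (3.82 ± 0.22). Both were low transcripts in every other library. SERPINB2, an inhibitor of plasminogen activators, was at 49.7, 41.4 and 84.4 RPKM against 0.934 to 9.82 (median 2.43) (4.29 ± 0.30). Its neighbour SERPINB10 (4.16) shares 20.3% of its exon bases with it on the same strand, so the pair cannot be fully separated. The stress cytokine GDF15 was at 8.42, 6.97 and 5.44 RPKM against 0.0557 to 0.684 (median 0.270) (4.47 ± 0.39), and the long RNA LINC00520 at 1.37, 4.07 and 4.41 against 0 to 0.332 (median 0.0623) (4.81 ± 0.37). Of the 16 protease and inhibitor genes fitted, 6 were higher and 1, TIMP3, was lower, with a median of 0.12. ADAMTS1, an aggrecan-cleaving protease, was at 1.01 ± 0.28.

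**Figure D2:**
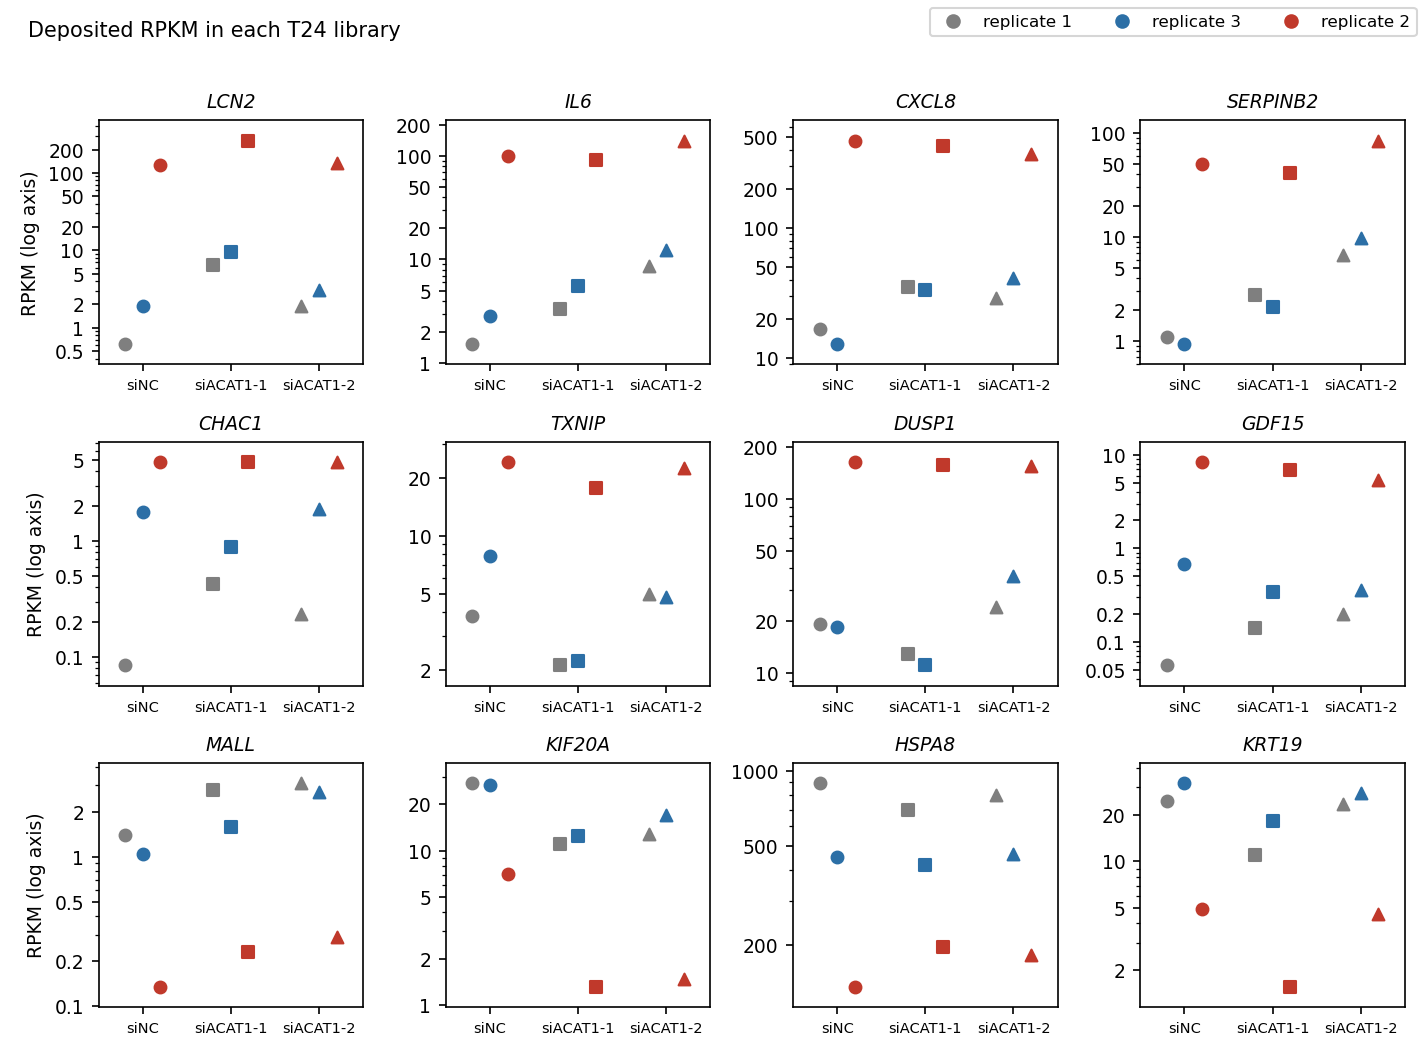
Deposited RPKM of 12 genes in each T24 library on log axes, with 1 panel per gene, the siRNA on the horizontal axis and colour for the replicate number. Replicate 2 lies above both other replicates in LCN2, IL6, CXCL8, SERPINB2, CHAC1, TXNIP, DUSP1 and GDF15 and below both in MALL, KIF20A, HSPA8 and KRT19, for every siRNA.

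Of 28 immediate-early and ERK output genes, 16 were higher and 1, the phosphatase DUSP4, was lower, with a median of 0.90 (1.21, 0.86 and 0.72). DUSP1, a phosphatase that switches off MAP kinases, was at 163, 156 and 154 RPKM against 11.1 to 36.4 (median 18.7) (3.00 ± 0.20). PHLDA1, a regulator of cell survival, was at 113, 93.1 and 108 RPKM against 9.42 to 30.8 (median 16.6) (2.52 ± 0.23), and an antisense gene overlaps 16.5% of it. Both sets of libraries were well separated. The zinc finger factor EGR1 was at 7.50, 8.34 and 13.0 RPKM against 0.532 to 4.19 (median 1.44) (2.48 ± 0.37), and IER3 (26.5% antisense overlap) at 112, 92.7 and 98.0 against 13.0 to 37.4 (median 25.4) (1.95 ± 0.21). JUN (1.11), JUNB (1.59), FOSB (1.36), KLF6 (1.36) and MYC (1.06) were among the 16. FOS itself, at 0.439 to 0.460 against 0.160 to 0.622 (median 0.293) RPKM, did not count (0.43 ± 0.33), nor did FOSL1 (0.25), an AP-1 subunit at 190.0 to 297 against 152 to 248 (median 182) RPKM. The ERK-induced inhibitors DUSP6 (1.02) and SPRY4 (0.72) counted as higher, whereas SPRY2 (0.06), ETV4 (-0.19) and ETV5 (0.03) did not.

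Genes of the ATF4 list were among those higher in replicate 2, and the list also differed between the other replicates. Of its 24 genes 13 were higher and 0 lower, with a median of 0.89 (0.95, 1.09 and 1.05). By the same rule 22 of the 24 were higher in replicate 3 than in replicate 1, with a median of 1.12, against 7.36% of all genes. ATF3, a repressor induced by stress, was at 20.3, 13.5 and 9.69 RPKM in replicate 2, 0.561, 1.65 and 0.596 in replicate 1 and 1.04, 1.06 and 0.732 in replicate 3. It was therefore about level in replicates 1 and 3 (difference 0.00) and higher in replicate 2 (3.88 ± 0.24). CHAC1, an enzyme that degrades glutathione, was at 4.79, 4.77 and 4.81 RPKM in replicate 2, 0.0847, 0.431 and 0.234 in replicate 1 and 1.77, 0.888 and 1.90 in replicate 3. It was higher in replicate 3 than in replicate 1 (2.55) and higher again in replicate 2 (2.40 ± 0.56). DDIT3 (CHOP), a factor linked to cell death, was at 201, 134 and 218 RPKM against 13.8 to 45.0 (median 33.9) (2.40 ± 0.26), with 28.0% of its exon bases under the antisense gene MARS. SESN2, a leucine sensor that restrains mTORC1, was at 13.5, 13.5 and 14.4 RPKM against 0.884 to 6.01 (median 3.29) (1.89 ± 0.36). By contrast the ATF4 transcript (0.36 ± 0.32) and the serine synthesis genes PHGDH (-0.18) and PSAT1 (0.34) did not count.

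Charging of tRNAs was measured by 18 synthetase genes, of which 6 were higher, AARS (1.05 ± 0.23), MARS (0.80 ± 0.27), TARS (0.74 ± 0.15), IARS (0.72 ± 0.16), NARS (0.68) and SARS (0.59), and 1, QARS (-0.60), was lower. The median was 0.49 for replicate 2 and 0.48 for replicate 3 minus replicate 1. Of 19 genes of the endoplasmic reticulum 6 were higher and 0 lower (median 0.25). They include the unfolded protein factor XBP1, at 143, 139 and 118 RPKM against 18.0 to 65.5 (median 41.5) (1.63 ± 0.32), the co-chaperone DNAJB9 (1.55 ± 0.21), and HERPUD1 (1.33 ± 0.26) and SEL1L (0.85 ± 0.14) of the degradation machinery, with the chaperones HSPA5 (0.82) and HYOU1 (0.66).

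TXNIP, which binds thioredoxin and limits glucose uptake, was at 24.1, 17.6 and 22.4 RPKM in replicate 2 and at 2.12 to 7.87 (median 4.34) in the others (2.34 ± 0.20). Of the 17 FOXO and MondoA target genes 8 were higher and 0 lower, with a median of 0.67 (1.05, 0.42 and 0.90). The arrestin ARRDC4 was at 2.18, 2.07 and 3.03 RPKM against 0.332 to 0.959 (median 0.739) (1.71 ± 0.20), the coactivator CITED2 at 13.7, 17.8 and 14.4 against 3.62 to 5.49 (median 4.99) (1.57 ± 0.14) and the repressor BCL6 at 1.55, 2.49 and 2.56 against 0.284 to 1.09 (median 0.867) (1.50 ± 0.19). The ubiquitin ligase adaptor KLHL24 (2.17) was also higher, while PDK4 (0.25) and FOXO1 (-0.34), both at low levels, did not count.

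Of 26 lysosome and autophagy genes 12 were higher, with a median of 0.57. The sialidase NEU1 was at 6.98, 9.04 and 8.92 RPKM against 1.38 to 2.57 (median 2.25) (1.92 ± 0.13) and the lysosomal calcium channel MCOLN1 at 4.72, 7.87 and 5.95 against 1.18 to 1.83 (median 1.65) (1.84 ± 0.16). MAP1LC3B, which coats autophagosomes, was at 18.8, 13.8 and 17.8 RPKM against 3.54 to 8.65 (median 4.49) (1.63 ± 0.16), and the cholesterol exporter NPC1 at 12.2, 16.9 and 14.6 against 2.59 to 6.64 (median 4.99) (1.60 ± 0.14). The only gene of the list that counted as lower was TFEB (-1.75 ± 0.27), a master factor of lysosomal genes, at 0.0704 to 0.163 against 0.307 to 0.439 (median 0.343) RPKM. Proton pump subunits did not count, for example ATP6V0D1 (0.40) and ATP6V1H (0.35). The p53 list was split, with 5 higher, 3 lower and a median of 0.23 over 17. The cell cycle inhibitor CDKN1A (p21) was at 7.29, 8.06 and 6.41 RPKM against 0.724 to 3.45 (median 1.69) (2.01 ± 0.31) and the kinase PLK3 at 1.08 ± 0.19, whereas the death receptor FAS was at 1.55, 1.83 and 1.69 RPKM against 3.25 to 5.76 (median 3.98) (-1.42 ± 0.17) and MDM2, the p53-induced ligase, did not count (-0.27).

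**Figure D3:**
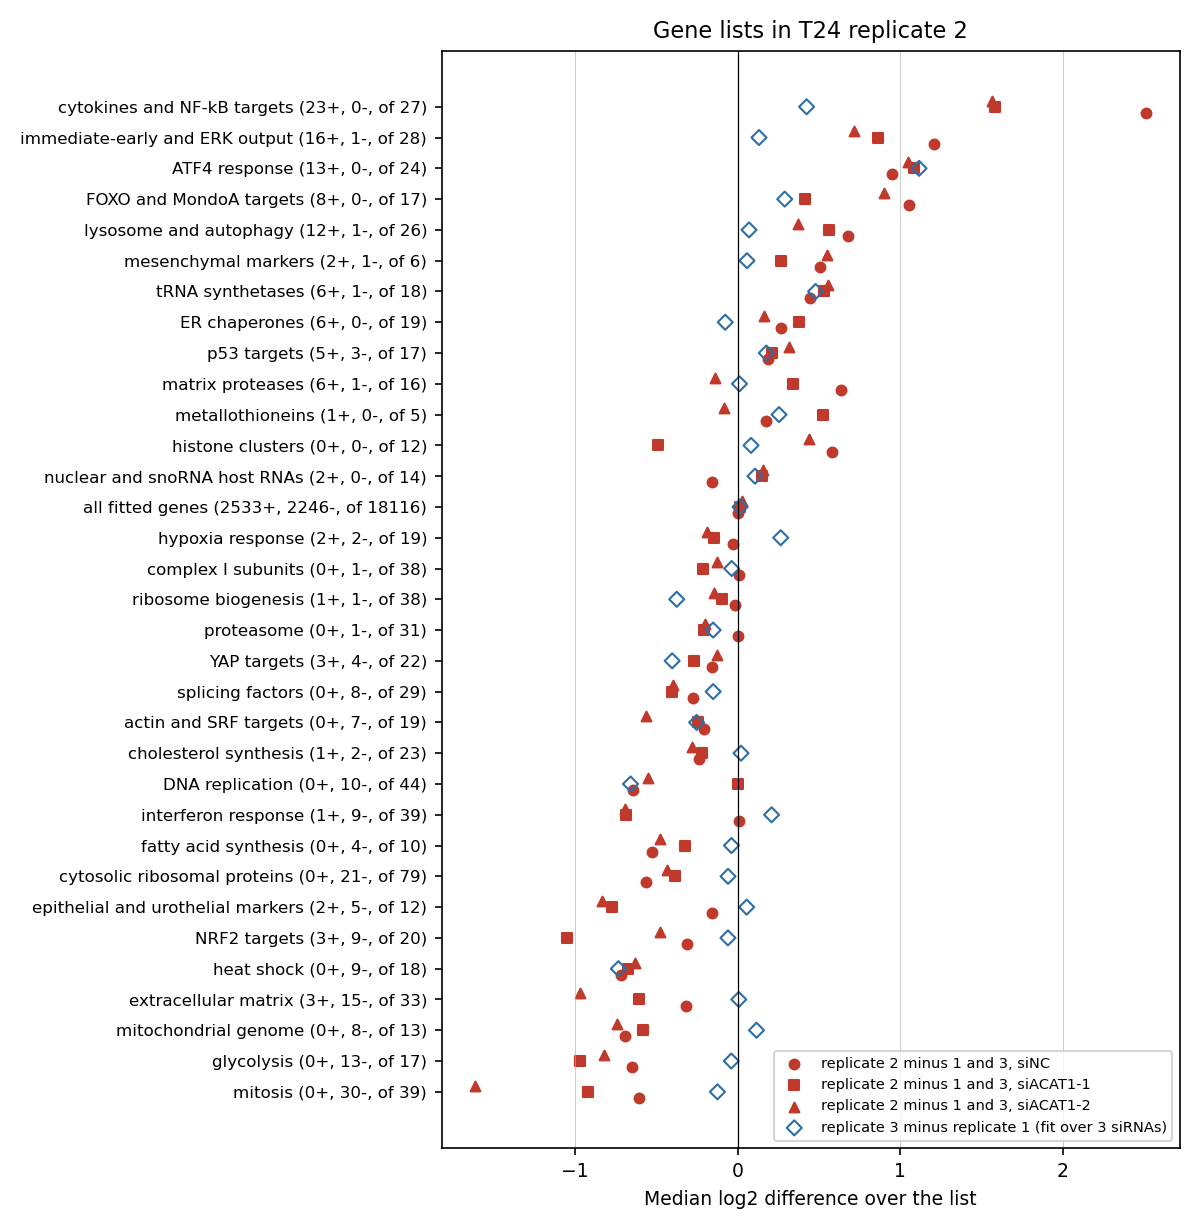
Median log2 difference of each gene list in T24, for replicate 2 minus replicates 1 and 3 in each siRNA (filled) and for replicate 3 minus replicate 1 (open diamonds), with the numbers of genes higher, lower and fitted beside each name. Cytokine and NF-κB genes lie highest with every siRNA (2.51, 1.59 and 1.56). Mitosis genes, lowest by the median of the fit over the 3 siRNAs (-0.99), lie at -0.61, -0.92 and -1.62 and are lowest with siACAT1-2 only.

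Genes of cell division were lower in replicate 2. Of 39 mitosis genes 30 counted as lower and 0 as higher, all 39 differences were negative, and the median was -0.99. The median was -0.61, -0.92 and -1.62 with siNC, siACAT1-1 and siACAT1-2. Each of these rests on a single replicate 2 library, so siRNA and library cannot be told apart, and their difference was not tested for the list. The spindle motor KIF20A (chr5:138178719-138187715, chromosome 5) was at 7.05, 1.32 and 1.47 RPKM in replicate 2 and at 11.0 to 27.2 (median 14.8) in the others (-2.82 ± 0.25). The kinase PLK1, which drives entry into mitosis, was at 6.25, 1.46 and 1.55 RPKM against 8.16 to 15.5 (median 13.4) (-2.36 ± 0.29). In both genes the siNC library of replicate 2 was closest to the other libraries. The centromere histone CENPA was at 3.33, 1.54 and 1.09 RPKM against 3.26 to 10.5 (median 5.57) (-1.72 ± 0.22) and CDCA3 at 2.20, 1.04 and 1.06 against 2.13 to 6.79 (median 3.37) (-1.52 ± 0.15), both with a slight overlap in the siNC library. The proliferation marker MKI67 (-1.33), the topoisomerase TOP2A (-1.23) and cyclin B1, CCNB1 (-1.17), were lower, and CDK1 (-0.35 ± 0.23) did not count.

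Of 44 DNA replication genes 10 (22.7%) counted as lower, against 12.4% of all genes, 0 as higher and 34 as neither, with a median of -0.42. Between replicates 3 and 1 the same list differed by -0.66, with 27 of 44 lower in replicate 3 against 3.77% of all genes. With siACAT1-1 the replicate 2 median was 0.00, against -0.64 with siNC and -0.55 with siACAT1-2. The origin factor ORC1 was at 1.83, 1.66 and 1.34 RPKM in replicate 2, 5.88, 6.09 and 5.10 in replicate 1 and 3.76, 2.25 and 3.08 in replicate 3 (-1.55 ± 0.32). The helicase subunit MCM5 (-1.33 ± 0.20), the ligase LIG1 (-1.12 ± 0.24) and the polymerase subunit POLE2 (-1.03 ± 0.30) had the next largest sizes, while MCM2 (0.07) and CDC45 (-0.01) were about level. Outside the lists, SKP2, which marks cell cycle inhibitors for degradation, was at 0.462, 0.544 and 0.472 RPKM against 2.54 to 4.31 (median 2.92) (-2.80 ± 0.22), and CDKN2C, the CDK inhibitor p18, at 0.973, 0.699 and 0.771 against 2.99 to 9.83 (median 5.78) (-2.87 ± 0.31). Of the 12 histone genes fitted 0 counted, with values from HIST1H2BD (0.69 ± 0.33) to HIST1H1E (-0.62 ± 0.43). Histone copies share sequence and most of their transcripts lack the poly(A) tail that an mRNA kit selects.

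Carbon metabolism followed. Of 17 glycolysis genes 13 were lower and 0 higher (median -0.85, with -0.04 for replicate 3 minus replicate 1). Lactate dehydrogenase A, LDHA (chr11:18394388-18408425, chromosome 11), was at 42.9, 34.6 and 37.4 RPKM against 92.5 to 145 (median 102) (-1.59 ± 0.15). Pyruvate kinase PKM was at 129, 115 and 127 RPKM against 224 to 304 (median 255) (-1.15 ± 0.12), and the isomerase GPI (-1.12 ± 0.13) and the glucose transporter SLC2A1 (-1.09 ± 0.17) were lower by a like size. None of the replicate 2 values in LDHA and PKM reached the other libraries. HK1 (0.08), PGK1 (-0.53), PFKM (-0.47) and ENO2 (-0.05) were the 4 that did not count. Enzymes of the pentose phosphate path, carried in the NRF2 list, were lower too, with transketolase TKT at 11.5, 11.2 and 9.25 RPKM against 29.1 to 32.5 (median 31.0) (-1.63 ± 0.11) and PGD at 51.5, 62.2 and 39.2 against 89.6 to 207 (median 99.8) (-1.37 ± 0.14). In the whole NRF2 list of 20 fitted genes 9 were lower and 3 higher, the median was -0.64 (-0.34 without siACAT1-1 replicate 2), AKR1C3 was at -1.64 ± 0.32, and OSGIN1, HMOX1 and FTL were the 3 higher ones (1.73, 1.37 and 0.68).

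All 13 genes of the mitochondrial genome were negative and 8 counted as lower, with a median of -0.71. MT-ND6, a complex I subunit from the opposite strand of the mitochondrial DNA, was at 3229, 3576 and 3475 RPKM against 5937 to 7302 (median 7008) (-1.09 ± 0.11). MT-ND5 (-1.03 ± 0.10), MT-CO3 (-0.94 ± 0.10) and MT-ND3 (-0.93 ± 0.12) followed, while MT-ND1 was about level (-0.05 ± 0.10). Mitochondrial transcripts took 2.54 to 2.95% of the counted reads in replicate 2, 3.81 to 4.15% in replicate 1 and 4.26 to 4.68% in replicate 3. The nuclear complex I genes differed little, with 1 of 38 lower, NDUFA9 (-0.62 ± 0.14), and a median of -0.13. All 79 cytosolic ribosomal protein genes were negative and 21 counted as lower (median -0.48). RPL3 was at 163, 149 and 161 RPKM against 209 to 326 (median 283) (-0.93 ± 0.12), and RPL34 (-1.02 ± 0.26), RPL8 (-0.97 ± 0.12) and RPS7 (-0.94 ± 0.21) were lower as well. Together the 79 genes took 4.87 to 5.69% of the reads in replicate 2, 5.56 to 7.54% in replicate 1 and 6.29 to 6.85% in replicate 3, and many have pseudogene copies that share reads.

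The 18 heat shock genes were all negative, 9 counted as lower and the median was -0.66, and between replicates 3 and 1 the median was -0.73 with 13 lower. HSPA8, the constitutive HSP70 (chr11:123057489-123063230, chromosome 11), was at 136, 196 and 182 RPKM in replicate 2, 892, 700.4 and 799 in replicate 1 and 452, 421 and 465 in replicate 3. Its levels thus ran from highest in replicate 1 to lowest in replicate 2 within each siRNA (-1.97 ± 0.29). HSPA1A (-1.75 ± 0.35) and HSPA1B (-1.35 ± 0.30), the near-identical inducible copies whose reads may be split, and the disaggregase HSPH1 (-1.42 ± 0.37) were also lower, and the small heat shock gene HSPB1 (-0.11) was not.

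Genes of the cell surface and matrix went both ways. In the extracellular matrix list 15 of 33 were lower and 3 higher (median -0.67, with -0.32, -0.61 and -0.97 by siRNA). Collagen COL13A1 was at 6.97, 6.23 and 5.62 RPKM against 17.9 to 38.1 (median 22.8) (-2.05 ± 0.22), the matricellular SPARC at 6.35, 5.96 and 6.82 against 12.0 to 33.8 (median 24.01) (-1.90 ± 0.22) and COL18A1 at -1.88 ± 0.14. In the opposite direction, the laminin-332 chain LAMB3 was at 641, 534 and 554 RPKM against 97.9 to 268 (median 181) (1.62 ± 0.21), and the adhesion modulator TNC (1.31) was also among the higher genes. Keratin 19, KRT19 (chr17:41523617-41528308, chromosome 17), was at 4.95, 1.56 and 4.62 RPKM against 11.0 to 31.8 (median 23.99) (-2.79 ± 0.20). KRT8 was at 117, 94.7 and 143 RPKM against 288 to 435 (median 317) (-1.61 ± 0.12), KRT7 at -1.51 ± 0.14 and the luminal factor FOXA1 at -1.65 ± 0.22, so that with KRT18 5 of 12 fitted epithelial markers were lower, while EPCAM (0.79) and KLF5 (1.05) were higher (median -0.56, and -0.85 without siNC replicate 2). Of the mesenchymal markers SNAI2 (Slug) was higher at 74.3, 90.8 and 58.1 RPKM against 15.4 to 33.8 (median 21.1) (1.67 ± 0.19) and ZEB2 at 0.96 ± 0.12, while N-cadherin, CDH2, was lower (-1.04 ± 0.14) and vimentin, VIM, with 24.4% antisense overlap, did not count (-0.56 ± 0.14), a median of 0.49 over 6 genes. Of the actin and SRF genes 7 of 19 were lower and 0 higher (median -0.36, and -0.15 without siACAT1-2 replicate 2), led by the calponins CNN2 (-1.32 ± 0.16) and CNN3 (-0.97 ± 0.17), ACTA2 (-1.26 ± 0.23, 30.1% antisense overlap) and TPM2 (-1.05 ± 0.16).

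Several of the 10 lowest genes outside the lists code for signalling proteins. MALL, a membrane raft protein (chr2:110083870-110116566, chromosome 2), was at 0.134, 0.230 and 0.292 RPKM against 1.04 to 3.09 (median 2.13), the lowest value of those that met the naming rule (-3.35 ± 0.28). The ligand WNT5B was at 2.71, 2.38 and 2.26 RPKM against 13.1 to 25.8 (median 21.3) (-3.12 ± 0.22) and NOG, the BMP antagonist noggin, at 1.61, 1.58 and 1.73 against 7.54 to 15.0 (median 9.86) (-2.74 ± 0.22). INHBB, a subunit of activin B, was at -2.80 ± 0.22, RGS4, which shortens G protein signals, at -2.87 ± 0.39, and DENND2A, an exchange factor for Rab proteins, at -2.998 ± 0.34. In all 6 of these the replicate 2 libraries lay below both other replicates with every siRNA, as the rule requires.

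The remaining lists held fewer genes that counted or went both ways. Interferon response genes were lower in 9 of 39 and higher in 1, IRF7, with a median of -0.43 that was 0.01, -0.69 and -0.69 by siRNA. IFIT1, a sensor of foreign RNA, was at 1.68, 1.43 and 1.59 RPKM against 3.81 to 7.58 (median 4.78) (-1.77 ± 0.21), EPSTI1 at -1.29 ± 0.23 and IFITM3, which blocks virus entry and has 21.3% antisense overlap, at -1.25 ± 0.21. Splicing factor genes were lower in 8 of 29 and higher in 0 (median -0.36), with SRSF2 at -1.57 ± 0.15 under 36.7% antisense overlap, SRSF7 at -1.28 ± 0.12, SRSF1 at -0.79 ± 0.11 and TRA2B at -0.73 ± 0.14. Fatty acid synthesis genes were lower in 4 of 10 and higher in 0 (median -0.48), namely the desaturases SCD (-1.93 ± 0.36) and FADS2 (-0.69 ± 0.15), the carboxylase ACACA (-0.89 ± 0.13) and the elongase ELOVL6 (-0.66 ± 0.17). Of 23 cholesterol synthesis genes 2 were lower, STARD4 (-0.82 ± 0.19) among them, and LSS was higher (1.07 ± 0.12), with a median of -0.40. YAP targets had 3 higher and 4 lower of 22 (13.6% and 18.2%, near the 14.0% and 12.4% of all genes, median -0.31), among them ANKRD1 (2.20 ± 0.46), GADD45A (1.75 ± 0.18), FJX1 (-1.03 ± 0.16) and CCDC80 (-0.93 ± 0.29). Between replicates 3 and 1 the YAP median was -0.40, with 7 of 22 lower in replicate 3, against 3.77% of all genes. Hypoxia genes had 2 higher and 2 lower of 19 (10.5% each, median -0.09), with the angiogenic factor VEGFA (1.12 ± 0.40) and the collagen crosslinker LOX (1.08 ± 0.21) higher, EGLN1 (-0.67) and PDK1 (-0.91) lower, and SLC2A3 (0.93 ± 0.23) and ADM (-0.69 ± 0.23) not counted. Between replicates 3 and 1, 5 of the 19 were higher in replicate 3, against 7.36% of all genes, and VEGFA was at 1.55. Few genes counted in ribosome biogenesis (1 higher, RRN3, and 1 lower, UBTF, of 38, median -0.13), the proteasome (0 and 1, PSMD1, of 31, -0.17), metallothioneins (1, MT1F, and 0 of 5, 0.11, with MT2A at 0.34 ± 0.21) and nuclear and snoRNA host RNAs (NEAT1 at 1.49 ± 0.22 and MALAT1 at 0.79 ± 0.11 higher and 0 lower of 14, 0.05). Of 3 leukocyte and 3 fibroblast markers fitted 0 counted (medians -0.45 and -0.15), and 0 endothelial markers passed the filter. The medians of the metallothioneins and of the nuclear and snoRNA host RNAs took either sign when single libraries were left out.

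Beyond the lists, the genes that counted differed in features the rule did not use. Of the 14824 fitted genes not named after a clone, 93.0 to 95.6% of the higher, lower and other genes matched GENCODE v44. GC content was taken in the protein-coding genes with a 3′ UTR. Its median in transcripts was 46.1% in the 1669 higher genes, 51.9% in the 1520 lower and 48.0% in the 9013 others. An AU-rich nonamer in the 3′ UTR, a motif found in many short-lived transcripts, was present in 230 of 1669 higher protein-coding genes (13.8%), 103 of 1520 lower ones (6.78%) and 837 of 9013 others (9.29%). In 3′ UTRs of 1 to 2 kb the shares were 12.6%, 4.38% and 7.53%. Long noncoding RNAs were higher in 150 of 769 (19.5%) and lower in 80 (10.4%), and of 94 snoRNAs recognised by name 0 were higher and 25 (26.6%) lower. Of 476 processed pseudogenes 34 were higher and 72 lower, and their reads may come from their parent genes.

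Of the 18116 fitted genes 10508 matched a RefSeq promoter. The κB motif shown above was present, on either strand, in 1.60% of all these promoters, in 3.11% of those of higher genes and in 1.19% of those of lower genes, and in 12 of 23 promoters of the cytokine list (52.2%). The composite element TGATGNAA was present in 1.73%, 2.76% and 1.03%, and in 4 of 19 promoters of the ATF4 list (21.1%). The CRE letters TGACGTCA were in 3.13%, 3.39% and 1.50%, and in 2 of 19 immediate-early promoters (10.5%). The box CCAAT was in 36.6%, 37.1% and 37.9%, and in 28 of 34 promoters of the mitosis list (82.4%). The lists were built from known targets of these factors, so the shares within them are a description of the lists.

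The 6 libraries left together also differed from each other. By the same rule 1333 genes (7.36%) were higher and 683 (3.77%) lower in replicate 3 than in replicate 1. Replicate 2 minus the others and replicate 3 minus 1 use the same 9 libraries, so they are set side by side only. The cytokine list was at 1.84 and 0.42, mitosis at -0.99 and -0.12, glycolysis at -0.85 and -0.04, the ATF4 list at 0.89 and 1.12, and heat shock at -0.66 and -0.73. Across the 18116 genes the replicate 2 differences of 2 siRNAs, which share no library, correlated at r = 0.70 to 0.74, with genes that are not independent replicates. Since replicate 2 was selected on these same counts, this likeness between siRNAs is partly built in and is a description only.

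UM-UC-3 libraries with the same number were compared as samples that the choice of T24 replicate 2 did not use. After Benjamini-Hochberg adjustment of edgeR's quasi-likelihood p-values, 30 of 18314 genes (0.164%) differed between UM-UC-3 replicate 2 and replicates 1 and 3, of which 12 were higher and 18 lower (4110 at an unadjusted p under 0.05, and 1175 with DESeq2). That count rests on single libraries, since without siACAT1-2 replicate 1 it was 1987 and without any other library 0 to 7. HSPA8 was higher there (2.05, adjusted p = 0.0335), at 717, 873 and 750.4 RPKM in replicate 2 against 295, 155 and 282 in replicate 1 and 219.7, 115 and 161 in replicate 3, and was lower in T24 replicate 2 (-1.97). ADIRF-AS1 (-1.89, adjusted p = 0.00335) and ADIRF (-1.81, adjusted p = 0.0406), overlapping genes on opposite strands whose reads cannot be told apart, were lower in UM-UC-3 replicate 2 and at 0.32 and -0.15 in T24. HUNK (1.78, adjusted p = 0.0246) and LRFN1 (2.47, adjusted p = 0.0335) did not pass the filter in T24.

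Over the T24 genes the directions were mostly opposite in the other line. Of the 2104 genes higher in T24 replicate 2 that were fitted in UM-UC-3, 1625 were negative and 479 positive in UM-UC-3 replicate 2, and 2 were among the 30. Of the 2064 lower genes 1477 were positive and 587 negative, and 3 were among the 30, while the 12312 others were split 6293 to 6019. The same side appeared in UM-UC-3 replicate 3, where by the 1.5-fold rule 465 of the T24 higher genes (22.1%) were higher and 43 (2.04%) lower, and of the T24 lower genes 52 (2.52%) were higher and 386 (18.7%) lower, with 5.99% and 5.98% for the rest. Across 16480 genes the T24 replicate 2 difference correlated at r = -0.41 with that of UM-UC-3 replicate 2 and at r = 0.40 with that of UM-UC-3 replicate 3, and these last 2 contrasts share all 9 UM-UC-3 libraries.

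By list, over the members fitted in both lines, the ATF4 genes were at 0.89 in T24 replicate 2 and at -1.23 in UM-UC-3 replicate 2, and heat shock genes at -0.66 and 0.71, each with the opposite sign in all 3 siRNAs. The mitosis list was at -0.99 and 0.30 and glycolysis at -0.85 and 0.24. GDF15 was at -5.39, DDIT3 at -3.45 and ATF3 at -3.17 in UM-UC-3 replicate 2. GDF15 was near 0 in those libraries (0.0597, 0 and 0.0669 RPKM), so its value rests on few reads. With siACAT1-2 replicate 1 was nearly as low as replicate 2, at 0.0839 against 0.0669 RPKM in GDF15, 54.6 against 39.3 in DDIT3 and 1.28 against 0.717 in ATF3. The cytokine genes differed less in UM-UC-3 replicate 2 (-0.18 over 18 genes, against 1.56 in T24), with IL6, under 1 RPKM in every UM-UC-3 library, at -1.06 and CXCL8 at -0.46. The FOXO and MondoA list had a median of 0.07 in UM-UC-3 replicate 2, and 9 of its 16 genes had the opposite sign to T24. Of those named for T24, BCL6 was at -1.08 there and TXNIP and ARRDC4, both under 1 RPKM in every UM-UC-3 library, at 1.91 and 0.97. The difference between the lines was not tested.

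**Figure D4:**
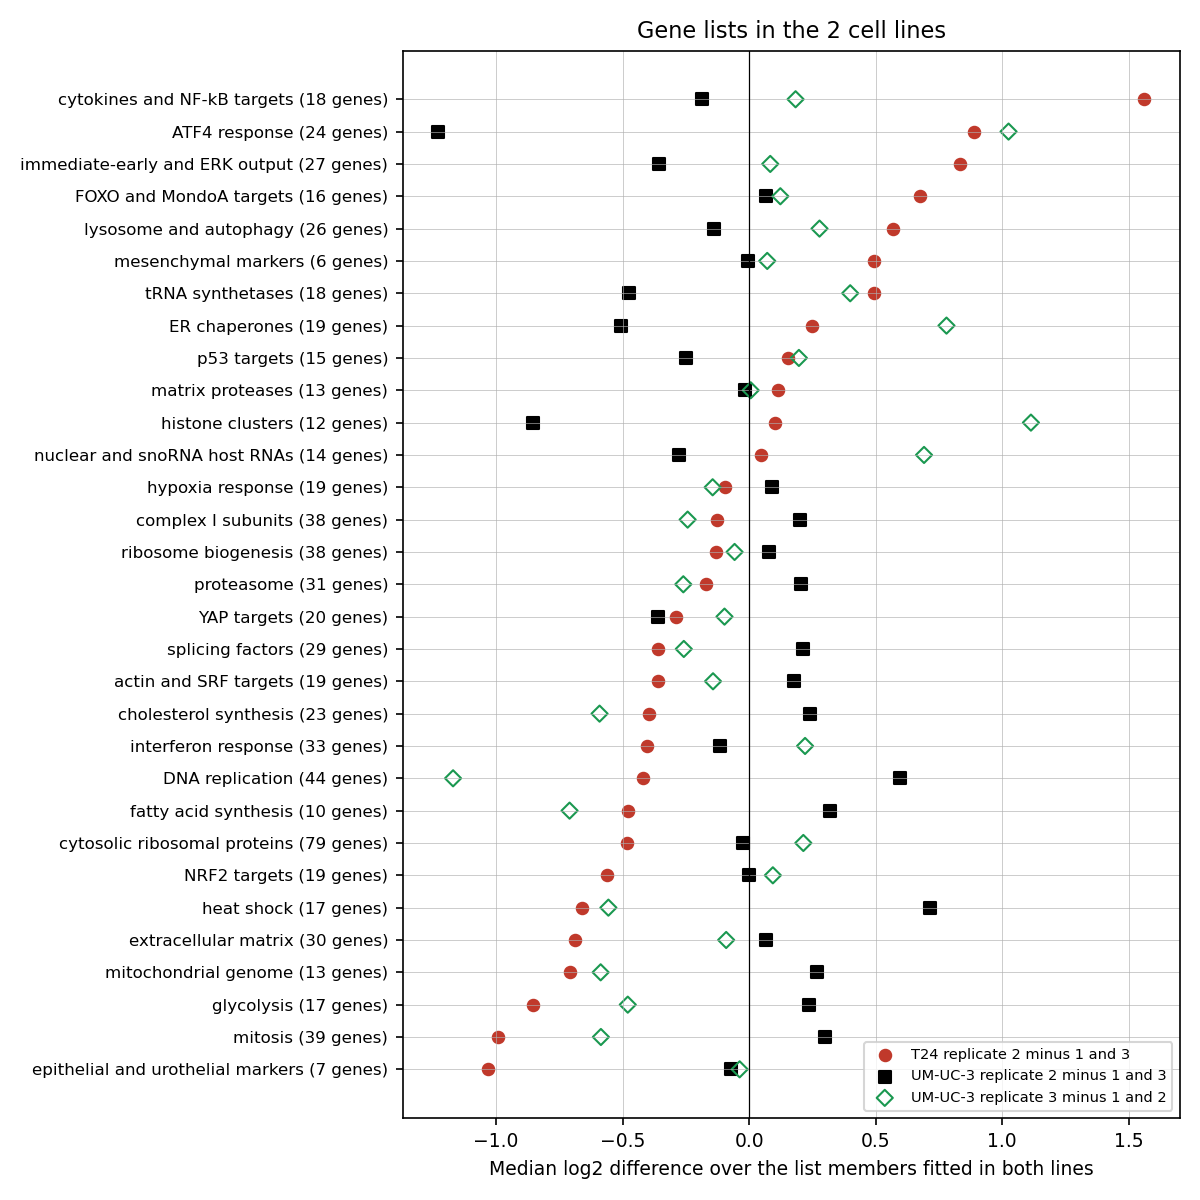
Median log2 difference of each list over the members fitted in both lines, for T24 replicate 2 (circles), UM-UC-3 replicate 2 (squares) and UM-UC-3 replicate 3 (open diamonds), each against the other replicates of its line. The ATF4 list lies at 0.89, -1.23 and 1.02 and heat shock at -0.66, 0.71 and -0.56.

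ACAT1, the gene targeted, was not part of the replicate 2 pattern (0.01 ± 0.14). It was at 16.8, 14.6 and 17.1 RPKM with siNC in replicates 1, 2 and 3, at 1.24, 1.46 and 1.17 with siACAT1-1, and at 0.789, 0.916 and 0.671 with siACAT1-2. Every siRNA library was below every control library, so the labels of replicate 2 held for the target. Over both siRNAs 2 of 18116 genes (0.0110%), ACAT1 and RP11-144G7.2, which overlaps it on the opposite strand, passed at a Benjamini-Hochberg adjusted p under 0.05 in edgeR (1289 at an unadjusted p under 0.05, and 80 adjusted with DESeq2).

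With the replicate number as a block 1472 genes (8.13%) passed the knockdown test, 667 higher and 805 lower. With replicate 2 against the others as the sole replicate term the count was 361, and without the 3 replicate 2 libraries it was 237. Of the 1472 genes 263 (17.9%) counted as higher and 307 (20.9%) as lower in replicate 2, against 14.0% and 12.4% of all genes. In 581 (39.5%) the replicate 2 difference was larger in size than that of the knockdown, against 69.1% of all genes. The 1472 genes were selected for their knockdown difference, so a lower share among them is partly built in. Mitosis genes were lower on both accounts, with 37 of 39 lower in the knockdown with the block (median -0.80) and 30 of 39 in replicate 2. Lysosome genes were higher on both, with 16 of 26 in the knockdown (median 0.53) and 12 in replicate 2. Matrix and interferon genes went apart. In the knockdown with the block 9 of 33 and 11 of 39 were higher, against 667 of 18116 genes. Lower in replicate 2 were 15 and 9 of them, against 12.4% of all genes. The interferon median in replicate 2 was 0.01 with siNC and -0.69 with each ACAT1 siRNA, so by median these genes were lower only with the ACAT1 siRNAs. Both contrasts come from the same 9 libraries.

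A knockdown that differed in size between replicate 2 and the others was tested as an interaction. Without the block 0 of 18116 genes (0%) passed in edgeR after Benjamini-Hochberg adjustment, 603 had an unadjusted p under 0.05, and DESeq2 called 17. With the replicate block 9 genes passed, 1125 had an unadjusted p under 0.05, and in all 9 the ACAT1 siRNAs had a lower effect in replicate 2. They were named after their values were seen. For all 9 the siRNA minus siNC values within replicates are differences of mean log2(RPKM + 1), which makes them smaller at low levels. They therefore do not add up to the fitted interaction that was tested, which was -3.02 for IFI6. IFI6, an interferon-induced membrane protein, was at 1.81, 1.85 and 1.65 RPKM with siNC in replicates 1, 2 and 3, at 10.3, 1.80 and 17.0 with siACAT1-1 and at 17.8, 2.05 and 13.1 with siACAT1-2. It was thus higher with both siRNAs in replicates 1 and 3 (2.48) and level in replicate 2 (0.04, adjusted p of the edgeR interaction = 0.0436 with the block and 0.253 without). The cilium gene CFAP45 had the same form, at 5.08, 3.51 and 3.30 RPKM in replicate 2 against 4.21, 12.5 and 12.1 in replicate 1 and 4.14, 14.9 and 11.6 in replicate 3 (adjusted p = 0.00763 with the block and 0.0814 without).

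The growth factor CSF2 was higher with the siRNAs in replicates 1 and 3 (1.29) and at -0.38 in replicate 2, where its control level was already 80.2 RPKM against 1.55 and 2.08 (adjusted p of the edgeR test = 0.0213, without the block 0.513). The long RNA LUCAT1 (0.83 and -0.76, adjusted p = 0.00763, without the block 0.111) and ERRFI1, a feedback inhibitor of the EGF receptor (0.76 and -0.69, 0.0253 and 0.513), had the same form. BIRC3, an inhibitor of apoptosis, was at 0.23 and -0.86 (0.0376 and 0.513), and GBP2, an interferon-induced GTPase, at 1.44 and 0.28 (0.0282 and 0.253). The mitotic kinases PLK1 (-0.38 and -1.53, 0.0345 and 0.380) and NEK2 (-0.25 and -1.69, 0.0253 and 0.253) were lower with the siRNAs by more in replicate 2. In the interaction without the block an unadjusted p under 0.05 was found for 15 of 39 interferon genes, 13 of 27 cytokine genes, 13 of 39 mitosis genes and 8 of 28 immediate-early genes, against 603 of 18116.

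**Figure D5:**
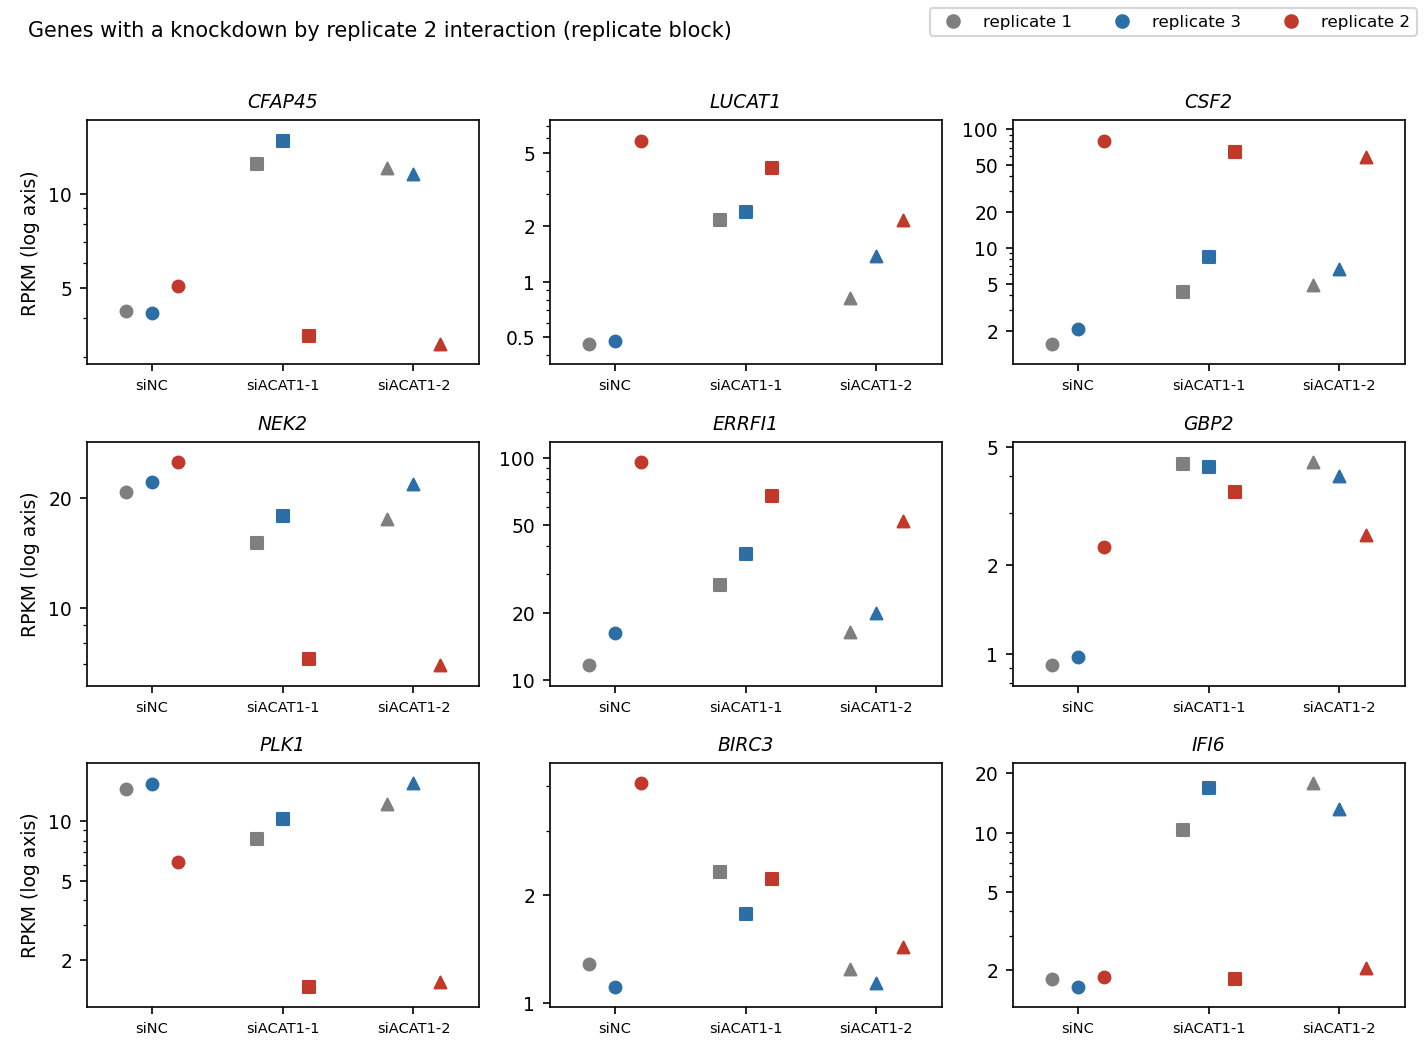
Deposited RPKM on log axes of the 9 genes with a knockdown by replicate 2 interaction in the fit with the replicate block, 1 panel per gene, with the siRNA on the horizontal axis and colour for the replicate number. For IFI6 the siRNA libraries of replicates 1 and 3 lie at 10.3 to 17.8 RPKM and those of replicate 2 at 1.80 and 2.05, beside controls of 1.65 to 1.85.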

How the data were processed

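Total RNA was taken with TRIzol, and libraries were made with a stranded mRNA kit that carries molecular identifiers and were run on a NovaSeq. The authors trimmed reads with Trimmomatic 0.36, aligned them to GRCh38 with STAR 2.5.3 and counted them on exons with featureCounts of Subread 1.5.1 (per the submitters' processing notes). The deposited counts of 39496 genes are whole reads without normalization, and the deposited RPKM divide them by gene length and by the reads counted on genes. How identifiers were collapsed, the strand setting and the release of the annotation are not given in the sources used here.

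Counts were fitted in R 4.3.3 with edgeR 4.0.16 (TMM, filterByExpr by siRNA group, quasi-likelihood, Benjamini-Hochberg), for each cell line alone, with the siRNA as a covariate. DESeq2 1.42.0, RLE factors, no filter, a 2-fold limit, log2(RPKM + 1), log2(RPKM + 0.1) and each library left out were alternatives. The fits were tested on simulated counts. Differences are log2 with standard errors, and levels are RPKM. Replicate libraries of T24 differed by more than sampling noise (chi-square per degree of freedom 39.3 to 194, with 116 to 194 for pairs that hold replicate 2), so each counts as 1 replicate.

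To check whether replicate numbers pair libraries, each gene's deviation from its group mean was taken. It correlated in all 9 pairs of T24 libraries with the same number (r 0.42 to 0.74) and in all 9 of UM-UC-3 (0.15 to 0.65), against -0.62 to 0.33 for other numbers. The T24 values reuse the counts on which replicate 2 was selected, so they are a description. Deviations cancel out within each group, so positive values for the same number lower those for other numbers, and that contrast is partly built in. The pairing is read from the data, since the labels do not say what a number marks, and fits with the replicate block are given where they change a count.

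The libraries and the gene lists were chosen with earlier results of these data known. The genes named are the 10 highest and 10 lowest at a mean of at least 1 RPKM without clone names, up to 4 of each list by size, ACAT1 and up to 5 genes called in UM-UC-3. All others, including the 9 interaction genes, were named after their values were seen. Some genes that the counts include are not reported here by name.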

Additional observations from a re-analysis of the deposited data

Results flagged for a closer look

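The ATF4 response genes moved in opposite directions in the replicate 2 libraries of the 2 lines. Their median was 0.89 in T24 (0.95, 1.09 and 1.05 with siNC, siACAT1-1 and siACAT1-2) and -1.23 in UM-UC-3 (-1.22, -1.46 and -0.82), over 24 genes. The heat shock genes did the reverse over 17 genes, with -0.66 in T24 (-0.82, -0.71 and -0.59) and 0.71 in UM-UC-3 (1.05, 0.83 and 0.68). Each list is singled out because its median had 1 sign in every siRNA of 1 line and the other sign in every siRNA of the other, and was at least 1.5-fold in both lines. Further lists changed sign in every siRNA with a smaller median in UM-UC-3, among them glycolysis (0.24) and mitosis (0.30). The difference between the lines was not tested, and a replicate number is not known to mark the same thing in both lines.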

How the results depend on the processing

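Among the genes named by rule, none that counted in T24 replicate 2 or was called in UM-UC-3 changed sign under the alternatives run, whereas ACAT1, ADIRF, HIST1H2BK and HIST2H4A, which did not count in T24, did. The replicate 2 counts in T24 (2533 higher, 2246 lower) were 1216 and 970 at a 2-fold limit and 1655 and 858 on log2(RPKM + 1), and 2650 to 3014 and 2395 to 2724 with each library left out. Replicate 3 minus replicate 1 (1333 and 683) gave 2117 and 1247 with no filter, 442 and 159 at 2-fold and 338 and 152 on log2(RPKM + 1). The interaction of knockdown and replicate 2 (0 genes) gave 41 with no filter, 17 with DESeq2, 9 with the replicate block and 0 to 0 with each library left out, where leaving out siNC replicate 2 could not be fitted. The T24 knockdown (2 genes) gave 32 with no filter, 80 with DESeq2, 1472 with the replicate block, 361 with replicate 2 as the only replicate term, 237 with its libraries left out and 1 to 4 with each library left out, where siACAT1-1 replicate 2 gave the 4 and siNC replicates 1 and 3, siACAT1-1 replicates 1 and 3 and siACAT1-2 replicates 1 and 3 gave 1 each. UM-UC-3 replicate 2 (30 genes) gave 2226 with no filter, 1175 with DESeq2 and 0 to 1987 with each library left out, where only siACAT1-2 replicate 1 raised the count. The cause of these changes was not tested. With a library left out, medians in T24 replicate 2 ranged from 0.71 to 1.21 for ATF4 genes, 0.36 to 0.71 for tRNA synthetases, -0.77 to -0.51 for heat shock, -0.43 to -0.27 for cholesterol synthesis, -0.40 to -0.23 for YAP targets, -0.45 to -0.15 for actin and SRF targets, 0.13 to 0.26 for p53 targets, -0.25 to -0.032 for hypoxia, -0.19 to -0.022 for ribosome biogenesis, -0.17 to -0.072 for complex I, -0.22 to -0.11 for the proteasome, -0.77 to -0.34 for NRF2 targets, 0.026 to 0.36 for matrix proteases, -0.85 to -0.39 for epithelial, -0.75 to -0.24 for leukocyte and -0.41 to -0.0084 for fibroblast markers. Medians near 0 changed sign in 3 lists. Histone genes (0.10) were at -0.051 without siNC replicate 2, -0.079 without siACAT1-2 replicate 2 and 0.53 without siACAT1-1 replicate 2. Metallothioneins (0.11) were at -0.019 without siACAT1-1 replicate 1 and 0.37 without siACAT1-1 replicate 3. Nuclear and snoRNA host RNAs (0.05) were at -0.021 and -0.078 without siACAT1-1 replicates 1 and 2, -0.0068 without siACAT1-2 replicate 2 and 0.18 without siNC replicate 2. Other medians that a single library moved by over 1.5 times were those of NRF2 targets and complex I (siACAT1-1 replicate 2), epithelial markers (siNC replicate 2), actin and p53 targets (siACAT1-2 replicate 2) and the proteasome (siACAT1-2 replicate 1), while several libraries did so for hypoxia, ribosome biogenesis, matrix proteases, leukocyte and fibroblast markers. Of 2077 values of genes named by rule under alternatives 1911 stayed the same, 137 moved by more and 29, all of UM-UC-3, lost the threshold. A replicate 2 value in T24 stayed the same when it shifted by less than the standard deviation of that difference over the 3 siRNAs. A tested value did so when it stayed on its side of the adjusted p limit. Neither uses the standard errors given above. Genes near 0 outside replicate 2 (DEFB103B, LINC00520, MMP3, GDF15) have fold changes that depend on few reads.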
